A study of Mus musculus with 6 samples.

Results

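The Integrator complex genes described here were 10 genes chosen by symbol, Ints1, Ints2, Ints3, Ints4, Ints6, Ints7, Ints8, Ints9, Ints10 and Ints11. All 10 were present among the 12134 genes of the intron tables, with 186 of the 85015 introns listed in any library and 75 of the 116873 transcripts of the long-read tables. The study lowered Son, a nuclear speckle protein with an arginine- and serine-rich domain that acts as a splicing cofactor, in the E14 line of mouse embryonic stem cells, derived from the 129/Ola strain. Cells grown in serum with LIF received Son siRNA or a control siRNA with Lipofectamine 2000, and RNA was taken 24 h after transfection from both groups, so transfection itself is shared. Total RNA depleted of ribosomal RNA was sequenced in 2 control and 2 knockdown libraries, and Nanopore cDNA in 1 library of each kind. The sources used here do not say that the replicates came from separate cultures, so p-values measure only the spread between these libraries, which may be technical.

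Integrator is a large complex of animal cells that binds RNA polymerase II and cuts nascent RNA. It forms the 3′ ends of spliceosomal small nuclear RNAs and ends transcription early at many protein-coding genes where polymerase has paused. Its endonuclease sits in a cleavage module, a phosphatase module carries protein phosphatase PP2A, and large backbone subunits hold the modules together.

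Of the 10 genes, Ints1 was the only one that passed the test in either total RNA readout when all 4 libraries were fitted by group alone. Its mean splicing efficiency fell from 0.983 ± 0.00187 to 0.969 ± 0.00658 (SD, n = 2) and its spliced reads from 470.5 ± 14.0 to 392.1 ± 29.3 CPM, while the catalytic subunit Ints11, its partner Ints9 and the phosphatase module subunits Ints6 and Ints8 did not pass either test. Splicing efficiency is the number of split reads (spliced across the junction) divided by split plus unsplit reads at both junctions of an intron, or summed over the introns of a gene. It was compared as the log2 odds ratio of unsplit reads, knockdown over control, so a value above 0 means less efficient splicing in the knockdown. Spliced reads were split reads at 5′ junctions summed over a gene's introns, in CPM (counts scaled to a library of 1e6 such reads). These CPM hold no TMM scaling, which entered only the tests of spliced reads and their log2 fold changes. In bulk RNA, fewer cells of a type and less RNA per cell cannot be told apart.

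The libraries held 10556187 to 16012286 split reads at 5′ junctions, and the long-read libraries 3080426 reads in the control and 1874851 in the knockdown. The second knockdown library had the lowest mean splicing efficiency over its listed introns, 0.867, against 0.876 in the first and 0.888 and 0.885 in the controls. Son itself stood at 280.9 and 311.9 CPM in the controls and 94.6 and 102.4 CPM in the knockdowns, a log2 fold change of -1.61 (SE 0.0869, adjusted p = 3.72e-10, edgeR quasi-likelihood test). The 10 embryonic stem cell markers looked at had 29701 long reads together in the control and 17542 in the knockdown, and none was at 0. Dppa5a alone gave 19555 and 11126 of them. Sox2 (112 and 118) and Klf4 (35 and 45) had more unscaled reads in the smaller knockdown library, and the other markers of this set had fewer. Of 5 fibroblast feeder markers, 4 were at 0 in both long-read libraries and the set summed to 5 and 8 reads. Neural markers summed to 233 and 142 reads, of which Tubb3 gave 215 and 133. Mesoderm markers summed to 4 and 2, and primitive endoderm markers to 26 and 12.

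**Figure D1:**
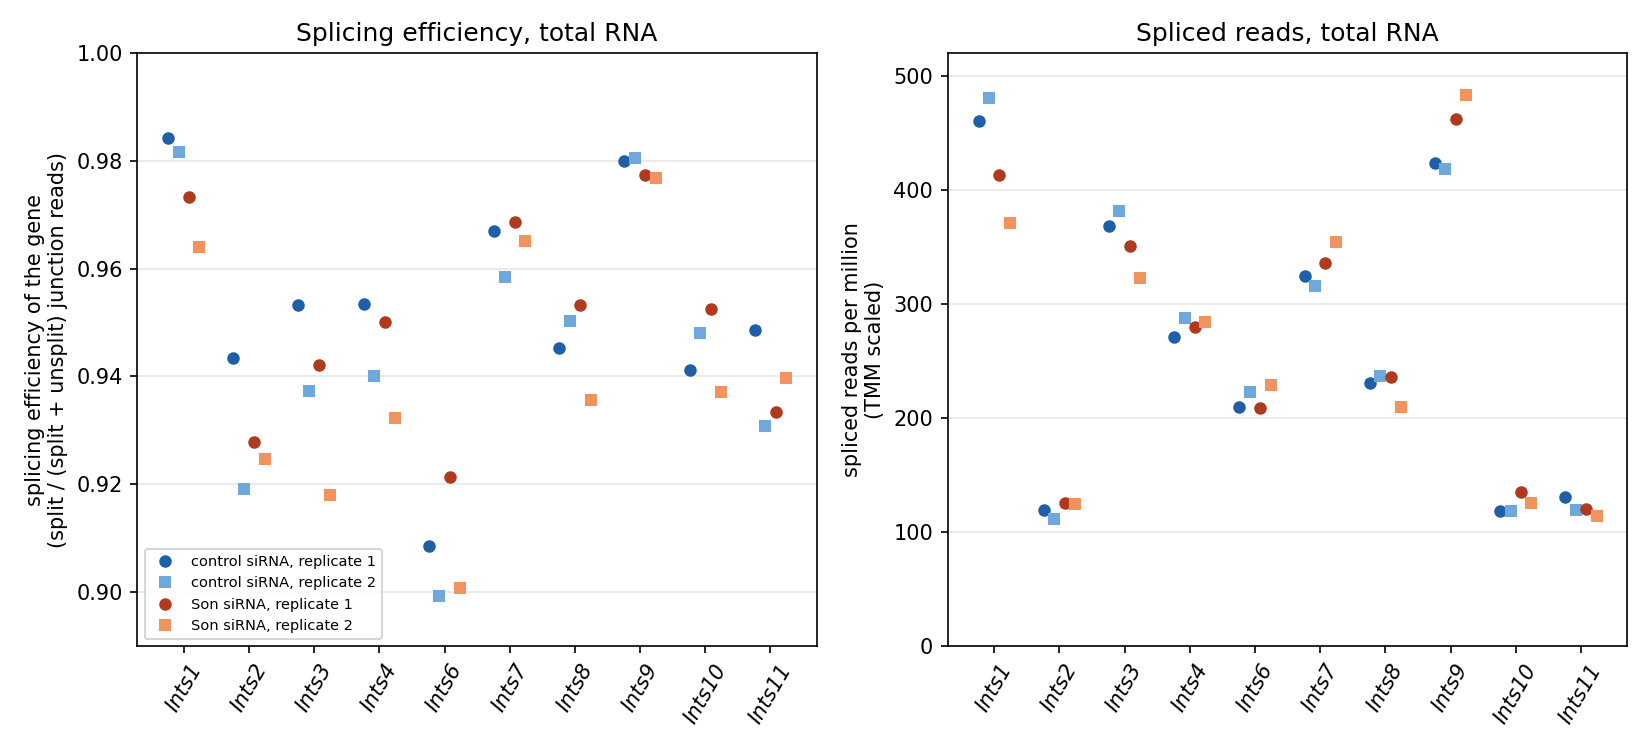
Splicing efficiency of each gene (left, axis cut at 0.89) and spliced reads in CPM (right) for the 10 Integrator genes, 1 point per total RNA library. The CPM were scaled to library totals, without the TMM factors that the axis label names. For Ints1 both knockdown libraries lie below both controls in both panels, from 0.984 and 0.982 to 0.973 and 0.964 in splicing efficiency.

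Ints1 encodes the largest Integrator subunit, a backbone scaffold. Its gene-level splicing efficiency was 0.984 and 0.982 in the controls and 0.973 and 0.964 in the knockdowns. Both knockdown libraries lay below both controls. The unsplit reads behind these values numbered 229 and 187 in the controls and 330 and 287 in the knockdowns, beside split counts of 14310, 9982, 12004 and 7673. Split counts are summed over both junctions, so a read spliced across an intron can enter them, and the test, at both. The log2 odds ratio was 0.89 (SE 0.232, adjusted p = 0.00309, edgeR quasi-likelihood test, Benjamini-Hochberg over 9370 genes). Ints1 was the 1 gene of the 10 called less efficient, and none was called more efficient, where 6.98% of all genes tested were called less and 0.128% more efficient. The call was lost when any of 3 libraries was left out: the value was 0.77 without the first control (adjusted p = 0.365), 1.00 without the second control (adjusted p = 0.0563) and 0.67 without the second knockdown (adjusted p = 0.243). Without the first knockdown it was 1.11 (adjusted p = 0.00355).

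Spliced Ints1 reads fell as well. The gene had 460.6 and 480.4 CPM in the controls and 412.8 and 371.3 CPM in the knockdowns, from 7174, 5008, 6021 and 3848 reads. The groups did not overlap. The log2 fold change was -0.28 (SE 0.0732, adjusted p = 0.0155, edgeR), and Ints1 was again the 1 member called, where 6.76% of the 9474 genes tested were called with fewer and 1.96% with more spliced reads. The call was lost without the first control (-0.32, adjusted p = 0.162), without the second control (-0.25, adjusted p = 0.387) and when only the gene's best covered intron was used (-0.15, adjusted p = 0.733). Of the genes tested in both readouts, 4.80% were called both less efficient and with fewer spliced reads.

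No single intron of Ints1, or of any member, passed the adjusted threshold: 0 of 174 member introns were called by edgeR's quasi-likelihood test, where 1.71% of all 63309 introns tested were called less and 0.0442% more efficient. DESeq2 called 0 member introns, and limma, which called 0 introns in the whole table, says nothing of the members. With at least 50 reads in every library 1 of 159 member introns was called, where 1107 of all 53341 introns were. At an unadjusted p under 0.05, 15 member introns were less efficient (8.62%, where all introns gave 8.11%) and 3 more efficient (all introns 1.61%). In 39 of the 174, both knockdown libraries lay below both controls (22.4%, all introns 24.3%), and in 24 both lay above (all introns 13.1%).

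Of the members, Ints1 and Ints3 had the largest shares of introns with a log2 odds ratio above 0. Of the 35 tested introns of Ints1, 29 had a log2 odds ratio above 0 (82.9%, against 58.0% of all introns), the median was 1.01 against 0.12 for all introns, and 13 had both knockdown libraries below both controls while 0 had both above. The other 9 genes together had 81 of 139 introns above 0 (58.3%), a median of 0.09, 26 without overlap below and 24 without overlap above. Among them Ints3 had 19 of 23 above 0 (82.6%), with a median of 0.34, and Ints9 had 5 of 14 introns without overlap below (35.7%, against 37.1% in Ints1). Of the 15 member introns less efficient at an unadjusted p under 0.05, 8 were in Ints1.

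The last Ints1 introns carried the smallest p-values of the gene. Intron 46, of 76 nt at chr5:139737389-139737464 (minus strand, GRCm39 as the submitters' processing notes name it), had a splicing efficiency of 0.991 and 0.983 in the controls and 0.954 and 0.940 in the knockdowns. Unsplit reads there numbered 5 and 6, then 21 and 13. Its log2 odds ratio was 2.05 (SE 0.623, adjusted p = 0.0582, edgeR), the smallest adjusted p of any member intron, and it was called when introns needed at least 50 reads in every library (adjusted p = 0.0496). The neighbouring intron 45, of 118 nt at chr5:139737575-139737692, was at 0.992 and 0.990 in the controls and 0.973 and 0.967 in the knockdowns (log2 odds ratio 1.75, adjusted p = 0.102, edgeR). Intron 18, of 246 nt at chr5:139750553-139750798, went from 0.959 and 0.975 to 0.905 and 0.899 (log2 odds ratio 1.60, adjusted p = 0.180, edgeR). Introns 45 and 18, and others below that were not their gene's intron with the smallest p, were chosen after their values were seen. Ints1 intron 35, of 529 nt, showed how far 1 library can weigh: it stood at 0.987, 0.976, 0.981 and 0.868, where the log2 odds ratio was 1.84 (adjusted p = 0.293, edgeR), and was called without the first knockdown library (adjusted p = 0.0102).

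The exon ends that these introns separate are shown to place the tested junctions, from GENCODE M21 transcripts and read 5′ to 3′. Each line joins 20 coding bases before and 20 after the intron, with the 3 bases on each side of the junction in capitals.
Ints1 intron 18: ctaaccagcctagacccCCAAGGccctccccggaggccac
Ints1 intron 45: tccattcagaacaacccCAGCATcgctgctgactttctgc
Ints1 intron 46: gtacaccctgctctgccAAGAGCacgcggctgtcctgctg
Ints3 intron 20: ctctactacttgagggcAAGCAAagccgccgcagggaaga
Ints10 intron 6: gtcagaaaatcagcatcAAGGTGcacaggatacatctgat
Ints11 intron 13: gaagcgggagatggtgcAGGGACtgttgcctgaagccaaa
The flanks of Ints1 introns 18 and 46 had 70.0% and 65.0% G and C and those of intron 45 had 52.5%, against 57.5% for the shown Ints3 and Ints11 junctions and 42.5% for the Ints10 junction.

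**Figure D2:**
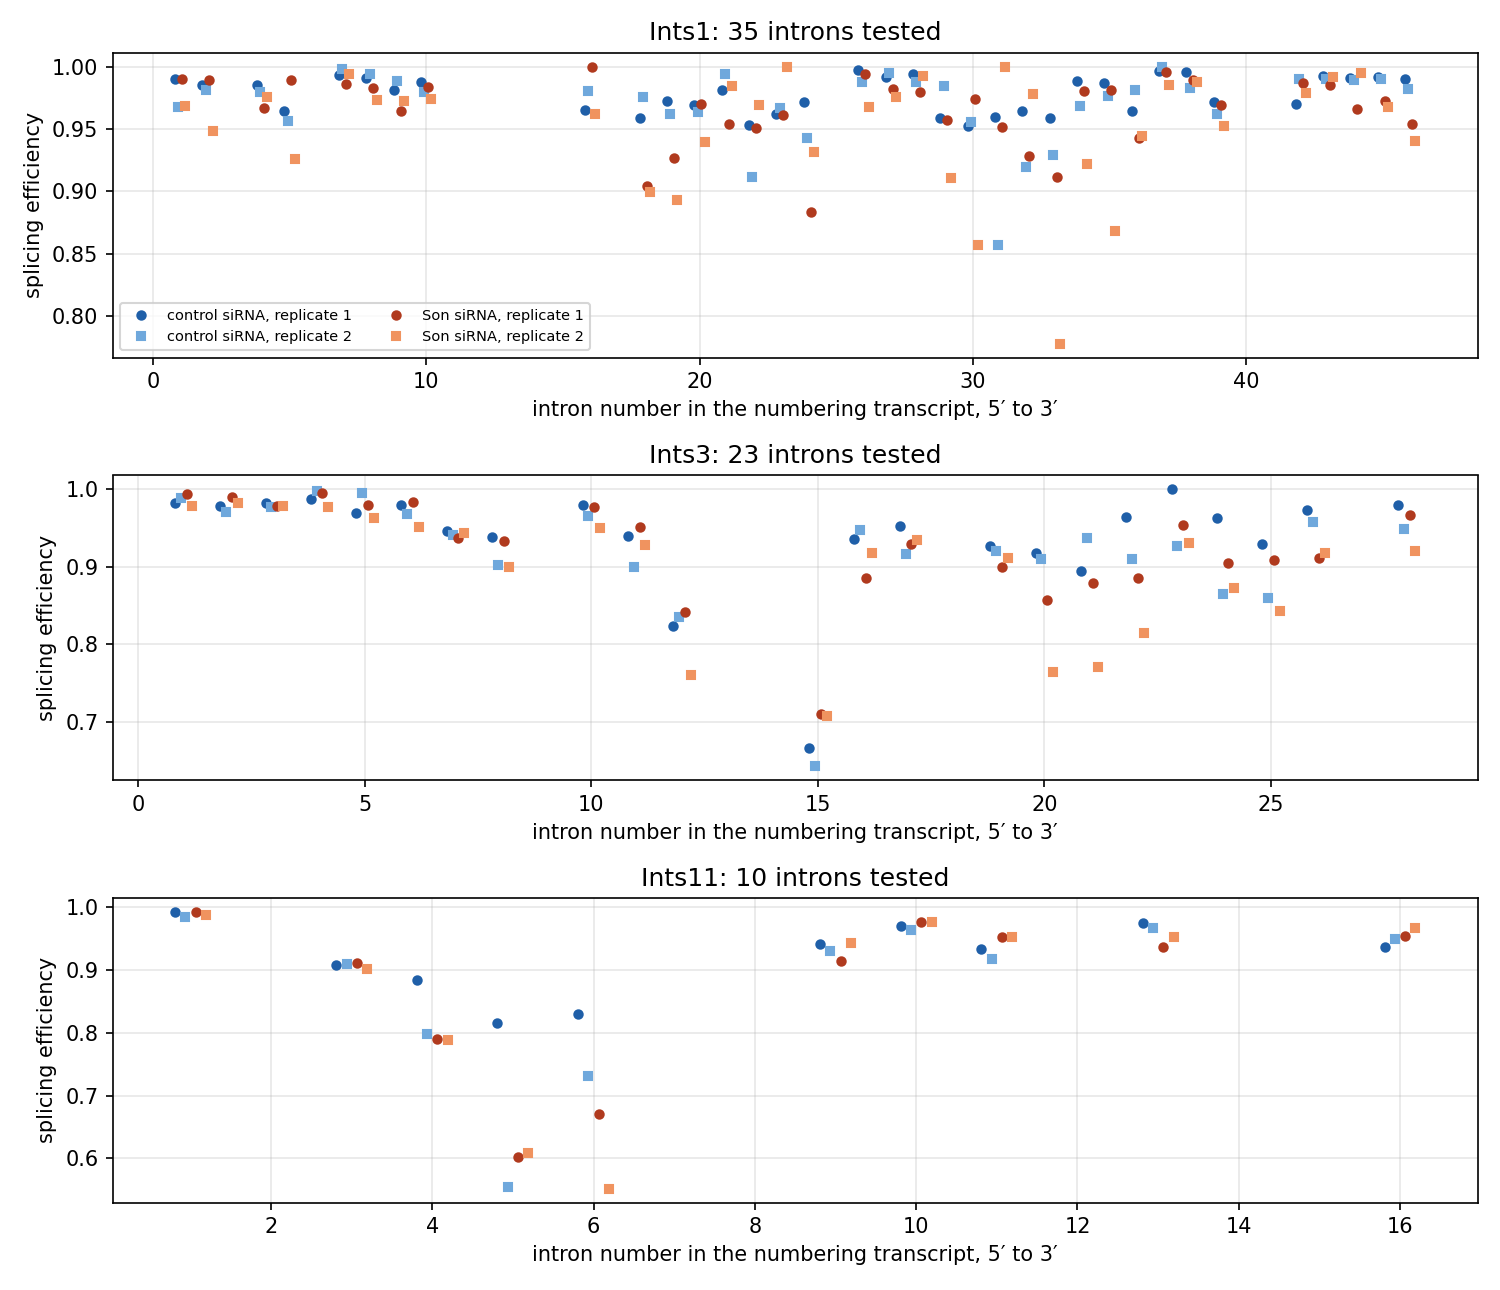
Splicing efficiency of every tested intron of Ints1 (35), Ints3 (23) and Ints11 (10) by intron number along the transcript, 1 point per total RNA library, with axes that do not start at 0. Ints1 knockdown points lie below the controls at introns 18, 45 and 46, and the lowest Ints11 values are at introns 5 and 6 in both groups.

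Ints1 also differed from most members in its gene structure. The median length of its 38 introns listed in all 4 libraries was 228.5 nt, at percentile 11.1 of all genes tested, and its longest transcript was 61.2% G and C, at percentile 95.3. Of its tested introns, 21 of 35 were in the shortest of 5 equal length classes of all tested introns (37 to 283 nt), as were 21 of the 139 tested introns of the other 9 genes. Within that class the median log2 odds ratio was 1.09 for Ints1, 0.36 for the other 9 genes and 0.43 for all 12695 introns. In the next class (284 to 790 nt) it was 0.68 for the 11 Ints1 introns, -0.07 for the 25 introns of the other genes and 0.15 for all introns. Among all genes, 27.7% of those with the lowest median intron lengths (up to 433.4 nt) were called less efficient, against 1.80% of the others. Introns of at most 100 nt numbered 15 among the members, 8 in Ints1 and 4 in Ints11. Of those 8 Ints1 introns 7 were above 0, with a median of 0.71 against 0.48 for all 4253 such introns, and 0 of the 15 member introns were called, where 8.28% of all such introns were called less efficient.

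Ints11, the zinc-dependent endonuclease of the complex, had a lower median intron length than Ints1 (180 nt, percentile 8.03) and a smaller log2 odds ratio. Its introns 1, 3 and 4 were 2406, 2214 and 9731 nt long, past the longest tested Ints1 intron (1493 nt). Its splicing efficiency was 0.949 and 0.931 in the controls and 0.934 and 0.940 in the knockdowns, so the groups overlapped. The log2 odds ratio was 0.10 (SE 0.253, adjusted p = 0.977, edgeR), and 6 of 10 introns were above 0. Its spliced reads stood at 130.5 and 119.5 CPM, then 120.6 and 114.5 CPM (log2 fold change -0.11, adjusted p = 0.557, edgeR). The difference between Ints1 and Ints11 was not tested. Intron 13, of 85 nt at chr4:155972420-155972504, had the smallest p of the gene, at 0.975 and 0.966 in the controls and 0.937 and 0.952 in the knockdowns (log2 odds ratio 0.98, adjusted p = 0.442, edgeR). Introns 5 and 6 were its least efficient ones already in the controls. Intron 5 stood at 0.815 and 0.554, then 0.602 and 0.608, and intron 6 at 0.830 and 0.732, then 0.671 and 0.552.

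**Figure D3:**
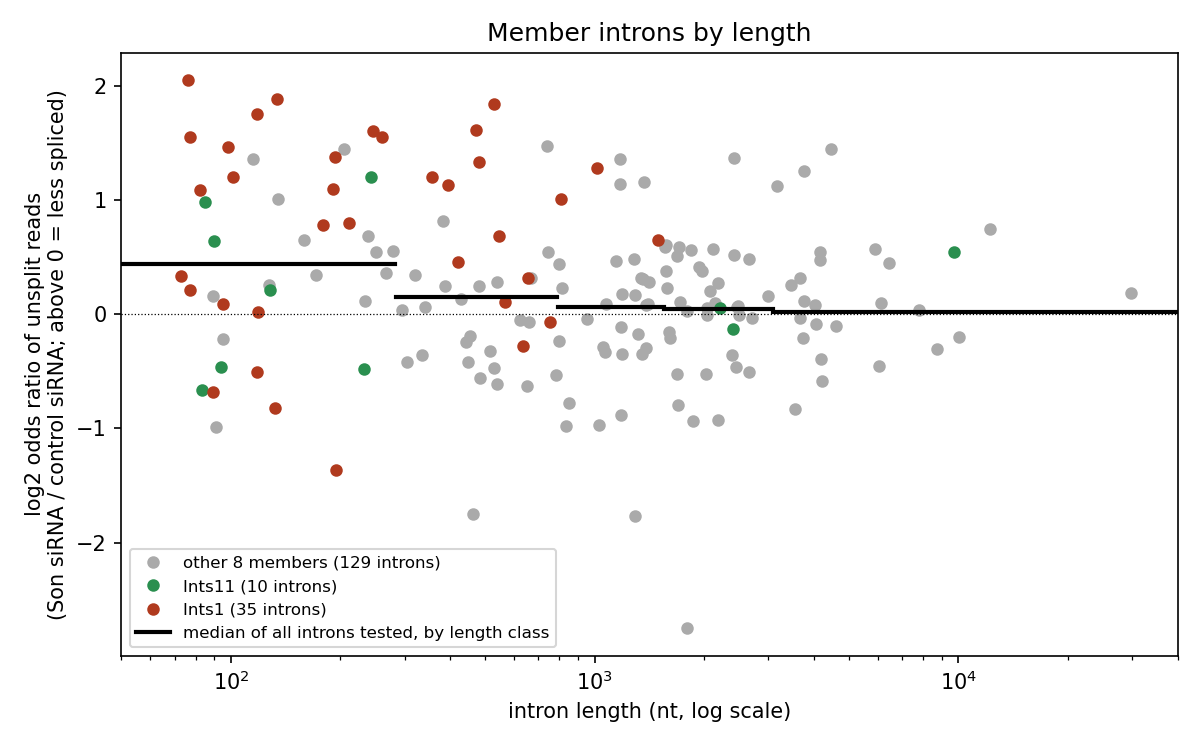
Log2 odds ratio of unsplit reads for each of the 174 tested member introns against intron length (log scale), with the median of all tested introns in each length class as a black line. Most Ints1 introns (red) lie to the left and above 0, and Ints11 introns (green) of like length lie on both sides of 0.

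The other cleavage module genes, Ints9 and Ints4, did not pass either test. Ints9, the catalytically inactive relative of Ints11, had a splicing efficiency of 0.9800 and 0.9806 in the controls and 0.9774 and 0.9769 in the knockdowns. The knockdown libraries were below both controls, as for 27.1% of all genes tested and for 2 of the 10 members, but the log2 odds ratio of 0.22 (SE 0.232) had an adjusted p of 0.862 by edgeR. Its spliced reads stood at 423.5 and 418.5 CPM, then 462.4 and 483.1 CPM, higher without overlap (log2 fold change 0.15, adjusted p = 0.252, edgeR). Without the first knockdown library the Ints9 value was 0.18. Its intron 12, of 3162 nt at chr14:65266507-65269668, had the smallest p, with 0.974 and 0.979, then 0.966 and 0.925. Ints4, the scaffold that holds Ints9 and Ints11, gave 0.953 and 0.940, then 0.950 and 0.932, where the log2 odds ratio was 0.15 (adjusted p = 0.939, edgeR) and spliced reads of 270.6, 288.0, 279.6 and 284.1 CPM (adjusted p = 0.974, edgeR). Ints4 intron 6, of 1370 nt at chr7:97148807-97150176, went from 0.974 and 0.957 to 0.952 and 0.890 (log2 odds ratio 1.16, adjusted p = 0.586, edgeR). At the 5′ junction alone the sign of Ints4 intron 6 turned (-0.17): unsplit reads there were 7 in the controls and 5 in the knockdowns, against 9 and 23 at the 3′ junction.

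The other backbone genes, Ints2 and Ints7, did not pass either test. Ints2 had a splicing efficiency of 0.943 and 0.919 in the controls and 0.928 and 0.925 in the knockdowns, where the log2 odds ratio was 0.13 (adjusted p = 0.957, edgeR). Its spliced reads were 119.5 and 111.8 CPM, then 125.2 and 124.7 CPM, higher without overlap (adjusted p = 0.651, edgeR). Ints2 intron 4, of 1176 nt at chr11:86141908-86143083, had the smallest p of the gene and a wide spread, at 0.819 and 0.692 in the controls and 0.694 and 0.400 in the knockdowns (adjusted p = 0.606, edgeR). Ints7 stood at 0.967 and 0.958, then 0.969 and 0.965, where the log2 odds ratio was -0.17 (adjusted p = 0.923, edgeR) and 6 of 16 introns above 0. Its spliced reads were 324.6 and 315.6 CPM, then 335.8 and 354.1 CPM, also higher without overlap (adjusted p = 0.576, edgeR). Ints7 intron 15, of 836 nt at chr1:191345855-191346690, was more efficient in both knockdown libraries, 0.990 and 0.987 against 0.982 and 0.972 in the controls (log2 odds ratio -0.98, adjusted p = 0.441, edgeR).

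The phosphatase module genes overlapped between groups in both readouts. Ints6, which helps recruit PP2A, had the lowest splicing efficiency of the 10, at 0.909 and 0.899 in the controls and 0.921 and 0.901 in the knockdowns (log2 odds ratio -0.13, adjusted p = 0.949, edgeR). Only 3 of its 12 introns were above 0. Its spliced reads were 209.3 and 222.4 CPM, then 209.1 and 228.9 CPM (adjusted p = 0.999, edgeR). Its intron 13, of 660 nt at chr14:62939963-62940622, was about as often unspliced as spliced in every library, at 0.542, 0.464, 0.614 and 0.408. Intron 17, of 2024 nt, had the smallest p and went up, from 0.904 and 0.872 to 0.931 and 0.909 (adjusted p = 0.806, edgeR). Ints8, which contacts the PP2A scaffold, gave 0.945 and 0.950, then 0.953 and 0.936 (log2 odds ratio 0.07, adjusted p = 0.982, edgeR), with 230.6, 236.5, 235.5 and 209.3 CPM (adjusted p = 0.602, edgeR). Ints8 intron 2, of 4464 nt at chr4:11248312-11252775, was at 0.915 and 0.957, then 0.885 and 0.787 (log2 odds ratio 1.45, adjusted p = 0.360, edgeR).

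Ints3, which also belongs to the single-stranded DNA-binding SOSS complexes, had the next values after Ints1 in both readouts and passed neither test when the 4 libraries were fitted by group alone. Its splicing efficiency was 0.953 and 0.937 in the controls and 0.942 and 0.918 in the knockdowns, overlapping between groups, where the log2 odds ratio was 0.37 (SE 0.223, adjusted p = 0.534, edgeR). Its spliced reads were 368.5 and 381.3 CPM, then 350.5 and 322.5 CPM, lower without overlap (log2 fold change -0.18, adjusted p = 0.172, edgeR). Without the first knockdown library the log2 fold change was -0.23. Its introns 20, 21, 22 and 26, in the 3′ part of the gene, each had an unadjusted p under 0.05 by edgeR. They were 4 of 23 tested introns (17.4%, against 8.11% of all introns), and introns 23, 24, 25 and 28 of the same part did not reach that limit. Intron 20, of 3772 nt at chr3:90303839-90307610, stood at 0.918 and 0.910 in the controls and 0.858 and 0.764 in the knockdowns (log2 odds ratio 1.25, SE 0.436, adjusted p = 0.143, edgeR), and was called without the first knockdown library (1.71, adjusted p = 0.0275). Intron 22 had 0.964 and 0.911, then 0.885 and 0.815, and intron 26 had 0.974 and 0.958, then 0.912 and 0.918. Upstream, intron 15 of 335 nt was poorly spliced in all libraries (0.667 and 0.643, then 0.711 and 0.707).

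Ints10, of the arm that Integrator forms with Ints13 and Ints14, had a splicing efficiency of 0.941 and 0.948 in the controls and 0.952 and 0.937 in the knockdowns (log2 odds ratio -0.03, adjusted p = 0.997, edgeR). Its spliced reads were 118.3 and 118.5 CPM, then 134.7 and 125.7 CPM, higher without overlap (log2 fold change 0.12, adjusted p = 0.514, edgeR). Ints10 intron 6, of 1790 nt at chr8:69255676-69257465, was the member intron with the smallest p in the other direction. It had 12 and 7 unsplit reads in the controls and 0 and 3 in the knockdowns, or efficiencies of 0.974 and 0.974, then 1.000 and 0.990 (log2 odds ratio -2.75, SE 0.886, adjusted p = 0.0743, edgeR). It was called without the second knockdown library (adjusted p = 0.0137), where the remaining knockdown library had 0 unsplit reads. An alternative Ints10 intron, of 784 nt at chr8:69276920-69277703 and numbered 3 in ENSMUST00000147072, had the lowest efficiency of all member introns, at 0.333 and 0.200, then 0.397 and 0.312.

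**Figure D4:**
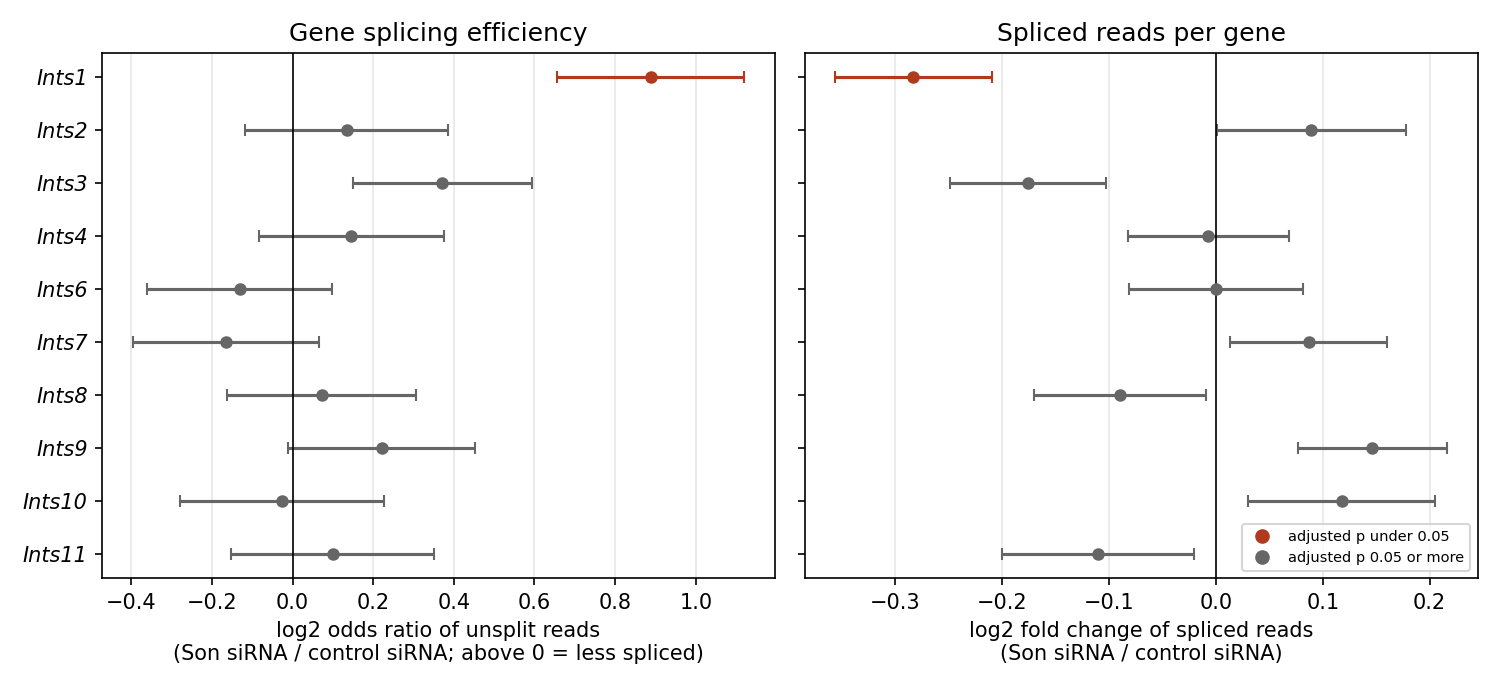
Log2 odds ratio of unsplit reads (left) and log2 fold change of spliced reads (right) for the 10 genes, knockdown over control. Bars are 1 SE, derived from the edgeR fit. Ints1 alone passes the adjusted threshold in each panel, at 0.89 and -0.28.

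Of the 10 genes, 6 had spliced reads, in CPM scaled to library totals, that did not overlap between groups. Ints1 and Ints3 were lower and Ints2, Ints7, Ints9 and Ints10 higher, where 22.0% of all genes tested were lower and 27.5% higher without overlap. The median log2 fold change over the 10 was -0.003 and that of all genes 0.01, and the median log2 odds ratio of gene splicing was 0.12 against 0.09.

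Levels were compared between genes as the median CPM per junction, which does not depend on the number of introns. Ints9 was highest at 32.2 ± 1.11 CPM in the controls (SD, n = 2) and 37.8 ± 2.13 in the knockdowns. Ints6 (19.7 ± 0.864), Ints7 (17.2 ± 0.308), Ints4 (16.6 ± 1.09) and Ints3 (15.6 ± 2.02) followed in the controls, and neighbours in that order overlapped across the 4 libraries. Ints11 (12.3 ± 1.01) lay below all of these and above Ints1 (11.2 ± 0.0874 in the controls, 9.80 ± 1.37 in the knockdowns), whose range overlapped that of Ints8 (9.20 ± 0.252). Ints10 (6.71 ± 0.548) and Ints2 (5.20 ± 0.365) were lowest, without overlap of their ranges.

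Long reads had 1 library per group, so no test was possible, and the Wilson intervals given with them cover counting error only. All 10 genes had at least 20 reads over both libraries and 0 differed by 2-fold or more, where 4.16% of the 9616 genes with that depth were at least 2-fold lower and 2.20% at least 2-fold higher. After scaling to CPM of all long reads with a pseudocount of 0.5 reads, 7 were lower and 3 higher, where 51.1% of all genes were lower. Ints1 had 38 reads in the control and 13 in the knockdown, or 12.3 CPM (95% interval 8.99 to 16.9) and 6.93 (4.05 to 11.9), a log2 ratio of -0.80. The intervals overlapped. Ints6 had 85 and 28 reads, 27.6 CPM (22.3 to 34.1) and 14.9 (10.3 to 21.6), a log2 ratio of -0.87, and its intervals did not overlap. How many of all genes had intervals without overlap was not counted, so there is no background for this. In total RNA the spliced reads of Ints6 had a log2 fold change of 0.00. Ints8 had 66 and 27 reads (log2 ratio -0.56), Ints4 121 and 58 (-0.34), Ints11 170 and 92 (-0.17), Ints3 86 and 48 (-0.12) and Ints10 221 and 127 (-0.08). Ints2 had 44 and 31 reads (0.22), Ints7 73 and 52 (0.23) and Ints9 88 and 75 (0.49). In both assays Ints2, Ints7 and Ints9 had values above 0 and Ints1, Ints3, Ints4, Ints8 and Ints11 values below 0. Ints6 and Ints10 differed in sign, and Ints1 alone had a total RNA value that passed the test. The total RNA values of Ints4 (-0.007, SE 0.0752) and Ints6 (0.0002, SE 0.0813) were far smaller than their SE. Those of Ints3, Ints4, Ints6 and Ints8 turned sign in some alternatives, so the shared signs carry little. The description of the long-read control names the same knockdown sample as its source as that of the long-read knockdown, so the assays were not paired, and Son itself had 217 long reads in the control and 37 in the knockdown.

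**Figure D5:**
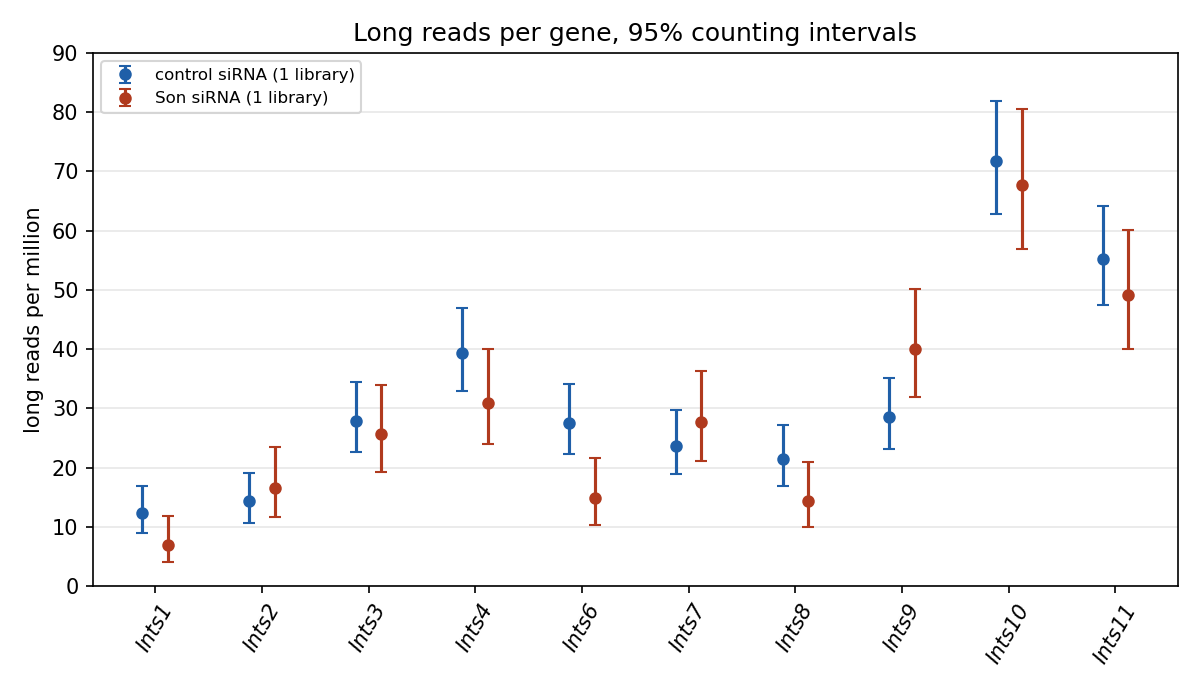
Long-read CPM for the 10 genes in the control and the knockdown library, with 95% Wilson intervals that cover counting error only. Ints10 and Ints11 are highest, at 71.7 and 55.2 CPM in the control. The Ints6 intervals do not overlap, which was not counted over all genes.

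Of the 75 annotated transcripts 26 had no long read in either library, and 16 had at least 20 reads over both. Of those 16, 2 were at least 2-fold lower and 0 at least 2-fold higher, where 5.80% and 3.32% of all 13807 such transcripts were. They were the Ints1 transcript ENSMUST00000072607, 7102 nt long, with 18 and 4 reads (log2 ratio -1.32), and the Ints6 transcript ENSMUST00000053959, 4993 nt long, with 19 and 5 reads (-1.11). Neither was past 2-fold with a pseudocount of 5 reads. The longer Ints6 transcript ENSMUST00000223585 had 57 and 20 reads (-0.77). The next Ints6 transcript, ENSMUST00000225406, had 5 and 2. In Ints1 the next transcripts were ENSMUST00000196864 with 9 and 5 reads and ENSMUST00000200393 with 10 and 2.

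The leading transcript of Ints11, ENSMUST00000030901, had 165 and 91 reads, the most of any member transcript (log2 ratio -0.14), and the next, ENSMUST00000120794 and ENSMUST00000134678, had 3 reads or fewer over both libraries. Ints4 was led by ENSMUST00000026126 with 96 and 47 reads (-0.31), before the retained-intron transcripts ENSMUST00000206843 (13 and 8, 0.05) and ENSMUST00000205481 (6 and 2). Ints9 was led by ENSMUST00000043914 with 74 and 67 reads (0.57), before the retained-intron transcripts ENSMUST00000224593 (11 and 5) and ENSMUST00000225790 (3 and 3). Among the cleavage module genes, Ints9 alone thus had a leading transcript with a log2 ratio above 0.

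The 3 Ints10 transcripts with most reads were all near 0 in log2 ratio: ENSMUST00000034328 (140 and 87 reads, 0.03), ENSMUST00000110242 (36 and 22, 0.02) and ENSMUST00000110241 (24 and 14, -0.04). Ints7 was led by ENSMUST00000045450 (57 and 36, 0.06), followed by ENSMUST00000194785, annotated as a target of nonsense-mediated decay (5 and 9), and ENSMUST00000193961 (5 and 5). Ints2 was led by ENSMUST00000018212 (35 and 22, 0.06), with ENSMUST00000108039 at 3 reads in each library. Ints8 was led by ENSMUST00000108319 (46 and 15, -0.87), followed by ENSMUST00000044616 (9 and 6) and ENSMUST00000108318 (5 and 3). In Ints3 the leading transcript ENSMUST00000029542 had 54 and 23 reads (-0.50), ENSMUST00000071488 had 15 and 14 (0.62) and ENSMUST00000196530 had 15 and 7 (-0.33).

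Transcripts annotated as retaining an intron took 7.16% of the member reads in the control (71 of 992, 95% Wilson interval 5.71% to 8.93%) and 7.26% in the knockdown (40 of 551, 5.38% to 9.73%). Over all genes the shares were 6.24% and 6.64%. In the control the largest member share was that of Ints4, with 25 of 121 reads in the control and 11 of 58 in the knockdown. In Ints2 such transcripts had 4 of 44 reads in the control (9.09%, 3.59% to 21.2%) and 6 of 31 in the knockdown (19.4%, 9.19% to 36.3%), with overlapping intervals. All 6 knockdown reads were of ENSMUST00000134883, which had 0 in the control. This was 3.29-fold above a floor of 3 reads in the control library, a value that leaves out the counting error of the 6 reads. ENSMUST00000127745 went the other way with 4 and 0 reads. In Ints10 the retained-intron transcript ENSMUST00000140309 had 5 and 0 reads. In Ints1 such transcripts had 1 of 38 and 2 of 13 reads, too few to compare.

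A list of 34 related genes, of which 33 could be matched by name, was looked at beside the members. In gene splicing efficiency 5 of the 33 were called less and 1 more efficient, and in spliced reads 4 were called with fewer and 0 with more (edgeR, backgrounds as above). Of the 12 other Integrator subunits and partners matched, 0 were called less efficient and 0 were called in spliced reads. Sem1, a small subunit of the proteasome lid, was more efficient (0.950 and 0.946, then 0.990 and 0.977, log2 odds ratio -1.83, adjusted p = 0.0441), a value from 1 intron. Of 5 factors of the small nuclear RNA promoter complex, 0 passed either test.

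Of 6 pausing factors, which hold RNA polymerase II near the promoter where Integrator acts, 3 were called less efficient (Nelfb, Nelfcd and Supt5). The same 3 were called with fewer spliced reads, where 6.98% and 6.76% of all genes tested were called in these readouts. Nelfb, a subunit of the negative elongation factor NELF, went from 0.962 and 0.947 to 0.924 and 0.886 in splicing efficiency (log2 odds ratio 1.13, SE 0.278, adjusted p = 0.00135, edgeR). Its spliced reads fell from 88.4 and 85.9 CPM to 57.7 and 48.5 CPM (log2 fold change -0.73, adjusted p = 8.77e-05), and this call held with each library left out in turn. Nelfcd, another NELF subunit, went from 0.918 and 0.912 to 0.856 and 0.845 (0.92, adjusted p = 0.00691), with spliced reads at 86.1 and 87.5 CPM, then 66.5 and 60.6 CPM (-0.47, adjusted p = 0.00376). Supt5, the large subunit of DSIF, went from 0.963 and 0.955 to 0.938 and 0.929 (0.73, adjusted p = 0.0113), with 722.6 and 720.1 CPM, then 621.2 and 624.2 CPM (-0.23, adjusted p = 0.0280). Nelfa, Nelfe and Supt4a did not pass either test. The median intron lengths of Nelfb, Nelfcd and Supt5 were 353, 382.5 and 236 nt, all among the lowest lengths (up to 433.4 nt), where 27.7% of genes were called less efficient.

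Of 10 related cleavage factors, which cut and polyadenylate messenger RNA, 2 were called less efficient and 1 with fewer spliced reads. Of all genes tested, 6.98% and 6.76% were called so. Cpsf1, the largest subunit of the polyadenylation signal factor, went from 0.972 and 0.966 to 0.943 and 0.943 (log2 odds ratio 0.92, adjusted p = 0.00305, edgeR), with 231.0 and 236.1 CPM, then 203.2 and 194.6 CPM (-0.25, adjusted p = 0.0465). Sympk, a scaffold of the cleavage machinery, went from 0.971 and 0.965 to 0.952 and 0.944 (0.73, adjusted p = 0.0192), and its spliced reads were not called (-0.14, adjusted p = 0.270). The closest relatives of the Integrator nuclease pair, Cpsf3 and Cpsf2, had log2 odds ratios of -0.01 and 0.01. The median intron of Cpsf1 was 95 nt and that of Sympk 547 nt. Without the first control library, 0 of the 6 splicing calls of the list remained by adjusted p. Without the second control Nelfb and Cpsf1 were called (2 genes), without the first knockdown 5 (all but Sem1), and without the second knockdown Cpsf1 and Sem1 (2 genes). Of the spliced read calls, Nelfb alone (1 gene) was made without either control.

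By distance over the gene splicing log2 odds ratio and the spliced read log2 fold change, the 3 genes of 9197 nearest to Ints1 were Dgkq, Atp5k and Atp13a1. Dgkq, diacylglycerol kinase theta, lay at 0.89 and -0.28 (distance 0.0048), with a median intron of 210 nt. Its splicing was called (adjusted p = 0.0398, edgeR) and its spliced reads were not (adjusted p = 0.492). Atp5k, a subunit of ATP synthase, lay at 0.88 and -0.30 from 1 intron of 196 nt and passed neither test (adjusted p = 0.881 and 0.666). Atp13a1, a transporter of the endoplasmic reticulum, lay at 0.87 and -0.29 with a median intron of 230.5 nt, and passed both (adjusted p = 0.00380 and 0.0380).

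The tables do not cover every intron of these genes. Of 234 introns annotated in the transcripts used for numbering, 182 were listed, and 49 of the 52 others overlap an annotated exon of the gene while 0 of the listed ones do. Of the 186 listed introns, 178 were in all 4 libraries and 174 had enough reads to test. Ints1 had 40 of 46 introns listed and Ints11 10 of 16, and introns that overlap an annotated exon of their gene are not analysed here. Whether reads were counted by strand is not given in the sources used here, so values in regions where genes overlap are uncertain.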

How the data were processed

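Per the labels, the authors made the total RNA tables with SPLICE-q, and deposited, for each intron, raw counts of the split and the unsplit reads at its 5′ and 3′ junctions, with a score. The deposited score is a fraction from 0 to 1, and checked on the tables it equals split over all junction reads. The lowest number of reads at a listed junction was 10. The long-read tables hold raw read counts by transcript, as the authors deposited them, per the labels. The submitters' processing notes name GRCm39, SAMtools and minimap2, and settings are not given in the sources used here.

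Here introns were reduced to 1 entry per position, and 681 listed under more than 1 gene were left out of gene sums. Introns in all 4 libraries with at least 10 split and 10 unsplit reads in all were tested with edgeR 4.0.16 (quasi-likelihood, R 4.3.3): both junctions were summed, split and unsplit columns of a library shared 1 size, and the group by unsplit term was tested. Spliced reads per gene were tested with TMM scaling and edgeR's filter. P-values were Benjamini-Hochberg adjusted over all features, with a threshold of 0.05. SE were calculated as the fitted edgeR coefficient over the square root of its F statistic. Samples were grouped by title, without a replicate block. Long reads were scaled to each library's total, with 95% Wilson intervals. The scripts were tested on simulated data. Gene names and exon sequences came from GENCODE M21, on another build, so no coordinate was taken from it. All 186 member introns matched an M21 intron of the same length.

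Alternatives were each library left out, a replicate block, DESeq2 1.42.0, limma 3.58.1, 1 junction, at least 50 reads, other scalings and filters, and other sums of spliced reads. Members and lists were chosen with earlier results of these data known. Text names all members, each member's intron with the smallest p, its leading transcripts (the 3 with most reads, or 20 or more reads and a 2-fold difference), and listed related genes past a test.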

Additional observations from a re-analysis of the deposited data

How the results depend on the processing

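The control and knockdown libraries of replicate 1 deviated from their group means with a correlation of 0.0085 over introns and 0.0017 over genes. These came from 2 pairs, and the numbers were not taken to pair the samples. Such a correlation cannot show a shift shared by all features. Mean splicing efficiency was lower in replicate 2 of both groups (0.888 and 0.885 in the controls, 0.876 and 0.867 in the knockdowns). Whether same-numbered libraries share an effect was therefore not settled. With the replicate block, 3 of 174 member introns were called (Ints1 intron 46, Ints3 intron 20 and Ints10 intron 6, adjusted p = 0.0244, 0.0476 and 0.0391 by edgeR), where 1626 of all 63309 introns were. In splicing efficiency the block called 2 member genes (Ints1, and Ints3 with adjusted p = 0.0137 by edgeR) and 1018 genes in all against 666. The block turned the spliced reads of Ints6 to -0.00095. Leaving out 1 library gave 0 to 2 called member introns against 0, 0 to 1 member genes in splicing and 0 to 3 in spliced reads (Ints1, Ints3 and Ints9 without the first knockdown) against 1 each, and 0 to 5 listed related genes in splicing against 6 and 1 to 5 in spliced reads against 4. All called introns then numbered 171 to 1427 against 1112, genes in splicing 180 to 702 against 666, and genes in spliced reads 381 to 2193 against 826. At least 50 reads called 1 of 159 member introns and 1107 of all 53341. DESeq2 called 294 introns in all, the 5′ junction alone 232, the 3′ junction alone 322 and limma 0. The best covered intron alone called 290 genes in spliced reads, 0 members and 1 listed related gene. When split and unsplit columns were each scaled to their own total, the median log2 odds ratio went from 0.12 to -0.04 over introns and from 0.09 to -0.08 over genes, and the Ints1 value stayed called at 0.73. With it, 600 genes were less and 115 more efficient, against 654 and 12. No member transcript was 2-fold apart with a pseudocount of 5 reads (0), and 14 were with no minimum of reads.

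Signs turned for values that had not passed a test, and the cause was not tested. In gene splicing without 1 library the ranges were -0.15 to 0.41 for Ints2, -0.087 to 0.38 for Ints4, -0.32 to 0.055 for Ints6, -0.34 to 0.0066 for Ints7, -0.17 to 0.32 for Ints8, -0.24 to 0.19 for Ints10 and -0.13 to 0.32 for Ints11. Separate scaling gave -0.021 for Ints2, -0.015 for Ints4, -0.10 for Ints8 and -0.050 for Ints11. The 3′ junction alone gave -0.015 for Ints2 and 0.10 for Ints10, and the 5′ junction alone -0.022 for Ints11 and -0.17 for Ints4 intron 6. In spliced reads the ranges without 1 library were -0.054 to 0.037 for Ints4, -0.071 to 0.073 for Ints6 and -0.35 to 0.017 for Sem1. The best covered intron alone gave 0.030 for Ints3, 0.12 for Ints8 and 0.022 for Sympk, library totals 0.014 for Ints4, and at least 50 reads -0.0028 for Ints6.

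With 2 libraries a group, the SE of the gene-level log2 odds ratio was 0.223 to 0.253 over the members, from 139 to 623 unsplit reads per control library.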
